A study of Mus musculus with 8 samples.

Results

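The genes described here make bile acids in the liver or carry bile acids and bile lipids across the hepatocyte membrane. They were chosen by name: every probe set of the array that named only 1 of 9 genes was taken, namely Cyp7a1, Cyp7b1, Cyp8b1, Baat, Nr0b2, Nr1h4, Slc10a1, Abcc2 and Abcb4. This gave 12 of the 12422 probe sets tested, for 9 of 8251 genes named alone by a probe set. Cyp7b1 had 2 probe sets, Slc10a1 had 3 and each other gene had 1.

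Expression was measured in total RNA of mouse liver on 8 Affymetrix oligonucleotide arrays, with 2 arrays in each of 4 groups. The mice of every group carried Ttr::Fv2E-PERK, a low-expressing transgene whose name joins the transthyretin gene, a liver gene, to a fusion of the stress kinase PERK with a drug-binding domain. AP20187 pairs the fusion protein and so turns on the integrated stress response without other stress. The 4 groups were untreated Atf4+/+, untreated Atf4-/-, AP20187-treated Atf4+/+ and AP20187-treated Atf4-/- siblings of a mixed FvB/n and Swiss Webster background. The series title calls the untreated mice mock-injected, and the mice's age, the dose and the time after injection are not given in the sources used here. The labels do not tie arrays to animals, so that p-values measure the spread between these arrays, which may be technical.

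Bile acids are made from cholesterol by hydroxylases of the cytochrome P450 family, joined to taurine or glycine, pumped into bile and taken up again from portal blood. Synthesis is held in check by feedback: bile acids bind the nuclear receptor FXR, the product of Nr1h4, which induces Nr0b2, whose product SHP represses the hydroxylase genes. The receptors NR5A2 and HNF4A drive the same hydroxylase genes.

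Promoter sequence from RefSeq (GRCm38.p6) was held for 6 of the 9 genes: Cyp8b1, Nr0b2, Nr1h4, Slc10a1, Abcc2 and Abcb4. The 250 bases before the transcription start are printed for Cyp8b1, Nr0b2 and Slc10a1 (the first of its windows), the members whose ratios were lowest in treated Atf4+/+ livers beside the untreated ones. They lie at chr9:121916306-121916555 on the minus strand, chr4:133553126-133553375 on the plus strand and chr12:80968706-80968955 on the minus strand. Capitals mark matches to CAAAGTCCA (a site of HNF4A), CAAGGNCA (a relaxed site of NR5A2) and TATAAA (the TATA box) on either strand.
Cyp8b1: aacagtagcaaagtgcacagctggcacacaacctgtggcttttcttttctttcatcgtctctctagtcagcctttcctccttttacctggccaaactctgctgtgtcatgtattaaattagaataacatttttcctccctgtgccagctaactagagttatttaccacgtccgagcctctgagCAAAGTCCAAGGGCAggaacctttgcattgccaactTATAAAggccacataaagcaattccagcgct
Nr0b2: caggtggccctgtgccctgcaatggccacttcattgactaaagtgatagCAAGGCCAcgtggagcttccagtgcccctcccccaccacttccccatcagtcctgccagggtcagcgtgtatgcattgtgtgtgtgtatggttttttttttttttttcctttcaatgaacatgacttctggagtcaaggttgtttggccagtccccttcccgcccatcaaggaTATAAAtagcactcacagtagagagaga
Slc10a1: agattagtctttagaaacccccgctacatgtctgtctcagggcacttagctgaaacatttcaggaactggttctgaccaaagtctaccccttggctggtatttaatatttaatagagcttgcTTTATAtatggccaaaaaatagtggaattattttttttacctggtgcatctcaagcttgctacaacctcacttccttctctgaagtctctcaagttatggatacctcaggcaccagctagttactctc
In the Cyp8b1 window the HNF4A match at -67 to -59 ran into the NR5A2 match at -60 to -53, counted from the base before the start, and the TATA box lay at -31 to -26. The Nr0b2 window held an NR5A2 match at -201 to -194 and a TATA box at -28 to -23. The Slc10a1 window held only TATAAA, on the opposite strand at -128 to -123. Among 32851 windows of 250 bases, 0.384% held the HNF4A letters, 5.53% the relaxed NR5A2 letters and 12.4% the TATA letters. These 3 motifs were picked after the windows had been read. Of 3 motifs named earlier, TGATGNAA (the C/EBP-ATF element), CAAGGTCA (the strict NR5A2 site) and TTATGTAA (the site of DBP), 0 matches lay in any window of these 6 genes, and 3.45%, 1.33% and 0.819% of all windows held them.

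Every value is a linear ratio, for most probe sets to the probe set's own median over the 8 arrays, so that ratios show no order of expression between genes. Several arrays stood apart. The targeted gene itself, Atf4 (GRCm38.p6 chromosome 15, 80255184 to 80257545), stood at 2.36 and 0.3 in arrays labelled untreated Atf4+/+ and 0.29 and 1.67 in those labelled untreated Atf4-/-, so that replicate 2 of each stood opposite to its label. The treated arrays stood on the side of their labels, at 4.17 and 5.75 in Atf4+/+ and 0.25 and 0.33 in Atf4-/-. Untreated Atf4-/- replicate 1 is Atf4-/- by its source name, followed here, but Atf4+/+ by its description. The deposited ratio of the 5' control probe set of Actb was divided by that of the 3' one. Treated Atf4+/+ replicate 2 had the lowest quotient, -0.64 on the log2 scale against -0.19 to 0.14 in the other 7. For Gapdh it hardly stood apart, with -0.06 against -0.05 to 0.13 in the other 7. Hepatocyte markers were measured for 8 genes, among them Alb, Apoa1 and Hnf4a (also counted with the regulators), and summed to ratios of 8.43 and 7.5 in untreated Atf4+/+, 9.67 and 8.51 in untreated Atf4-/-, 7.13 and 6.2 in treated Atf4+/+ and 8.41 and 8.39 in treated Atf4-/- arrays. The sum was lowest in treated Atf4+/+ replicate 2, where the markers did not stand alike. There Apob (0.29), Ttr (0.47) and Apoh (0.7) were lowest, while Apoa1, Cps1, Ahsg, Alb and Hnf4a stood at 0.87 to 1.02. Ratios cannot show whether a marker is present, and in whole liver fewer hepatocytes and less RNA per hepatocyte cannot be told apart.

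**Figure D1:**
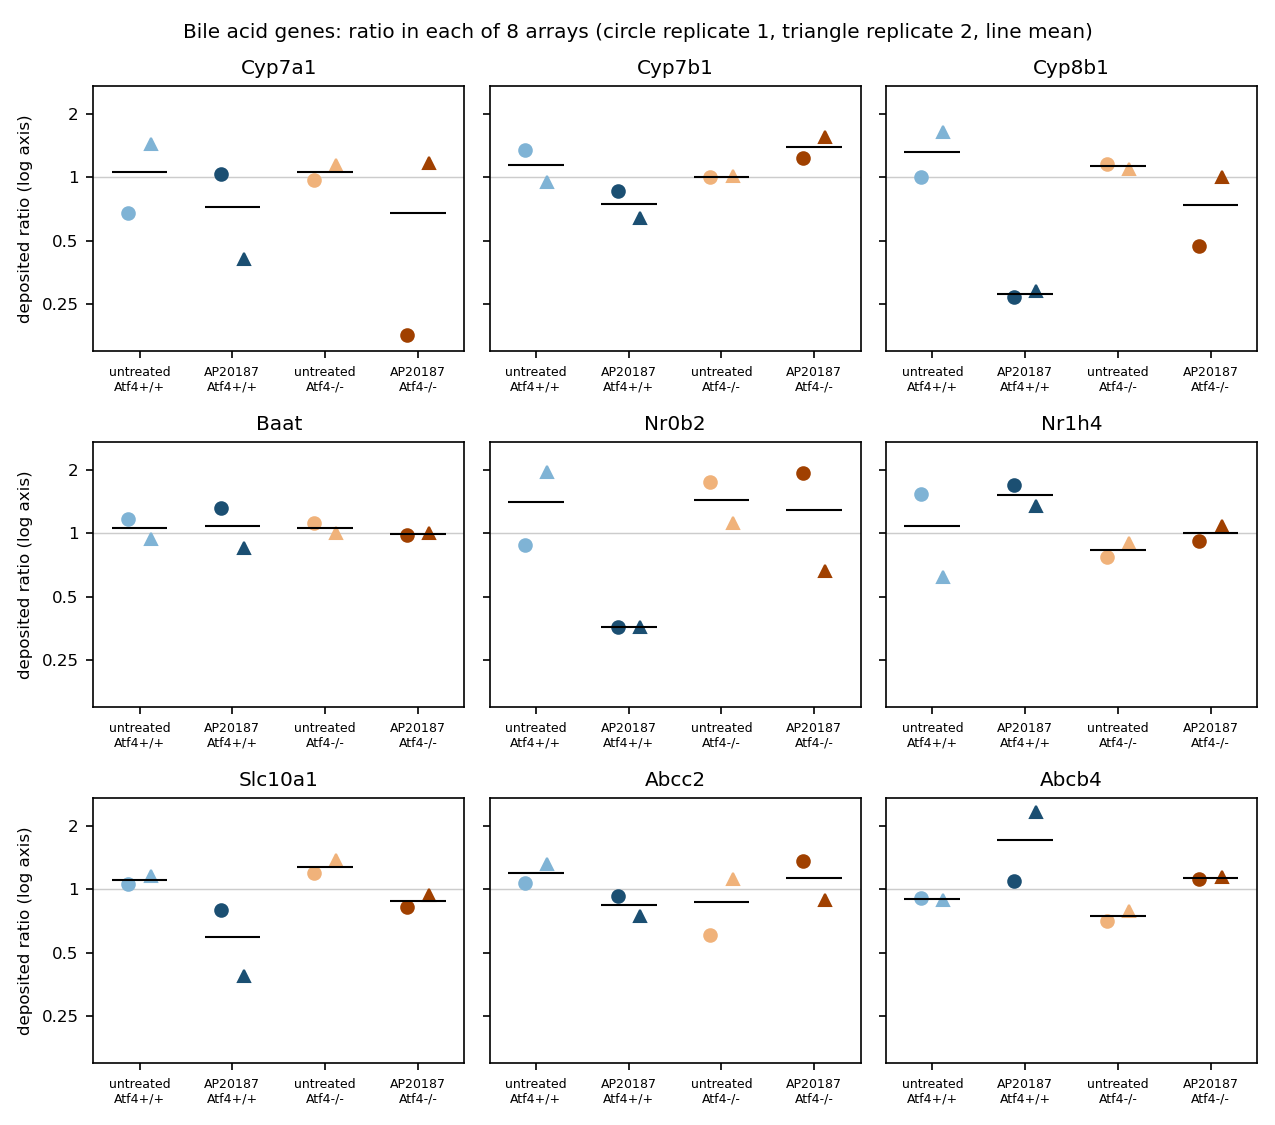
Deposited ratio (log axis) of the 9 bile acid genes, 1 probe set per gene, in the 8 arrays. Circles are replicate 1, triangles replicate 2 and lines group means. Cyp8b1 stood at 0.27 and 0.29 and Nr0b2 at 0.36 in both treated Atf4+/+ arrays, below every other array, while Slc10a1 was lower and Abcb4 higher in all 4 treated arrays than in all 4 untreated ones.

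The first question was what AP20187 changed over both genotypes, with 4 treated and 4 untreated arrays, a comparison whose log2 changes do not depend on the genotype labels of the untreated arrays. The clearest differences were lower Cyp8b1, Slc10a1 and Nr0b2 and higher Abcb4 in treated livers, and none passed the test over all probe sets. Of the 12 member probe sets 0 had a limma adjusted p under 0.05, where 0.0403% of all probe sets (5 of 12422) did, and 4 had an unadjusted p under 0.05, where 11.3% of all did. Of the 9 genes 7 had a log2 change below 0, beside 55% of all probe sets, and the median was -0.06 beside -0.04 for all. The members therefore did not move as a block: 3 were well below 0, 1 was well above and the others lay close to 0 or varied widely. The count of 4 was 1 without replicate 2 of untreated Atf4+/+ or of untreated Atf4-/-, 2 without replicate 1 of untreated or of treated Atf4-/-, and 2 without both untreated arrays that stood opposite to their labels, and the median was 0.03 without treated Atf4+/+ replicate 2.

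The regulators come first. Nr1h4 (chromosome 10, 89454234 to 89533645), the gene of FXR, had ratios of 1.54 and 0.62 in untreated Atf4+/+, 0.77 and 0.9 in untreated Atf4-/-, 1.69 and 1.34 in treated Atf4+/+ and 0.92 and 1.08 in treated Atf4-/- arrays. The groups overlapped between treated and untreated livers, and the log2 change with AP20187 was 0.40 ± 0.28 (SE, 4 against 4 arrays, limma adjusted p = 0.624). It was 0.10 without untreated Atf4+/+ replicate 2, 0.70 without untreated Atf4+/+ replicate 1 and 0.15 without both untreated arrays opposite to their labels. In treated livers both Atf4+/+ arrays stood above both Atf4-/- arrays (-0.55 ± 0.40 for Atf4-/- minus Atf4+/+, limma adjusted p = 0.956).

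Nr0b2 (chromosome 4, 133553376 to 133556686), the gene of the repressor SHP, stood at 0.88 and 1.94 in untreated Atf4+/+, 1.75 and 1.12 in untreated Atf4-/-, 0.36 and 0.36 in treated Atf4+/+ and 1.92 and 0.66 in treated Atf4-/- arrays. Both treated Atf4+/+ arrays were the lowest of the 8, and of the treated Atf4-/- arrays 1 lay within the untreated range and 1 below it. The log2 change was -0.95 ± 0.39 over both genotypes (SE, limma adjusted p = 0.44), -1.62 ± 0.55 in Atf4+/+ (limma adjusted p = 0.492) and -0.28 ± 0.55 in Atf4-/- (limma adjusted p = 0.922). The value in Atf4+/+ was -1.09 without untreated replicate 2, which is also the value without both untreated arrays opposite to their labels, and that in Atf4-/- was -0.98 without treated replicate 1. It turned above 0 without treated replicate 2 (0.43) and without untreated replicate 1 (0.02).

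Of the hydroxylases, Cyp7a1 (chromosome 4, 6265612 to 6275632) encodes the rate-limiting enzyme of the classic pathway of bile acid synthesis. Its ratios were 0.68 and 1.44 in untreated Atf4+/+, 0.97 and 1.14 in untreated Atf4-/-, 1.03 and 0.41 in treated Atf4+/+ and 0.18 and 1.17 in treated Atf4-/- arrays. In each treated group 1 array was low and the other within the untreated range, so that the groups overlapped. Its pooled SD within groups was 0.94 on the log2 scale, the widest of the 9 chosen probe sets, and its log2 change of -0.74 ± 0.54 over both genotypes (SE, limma adjusted p = 0.635) was -0.19 without treated Atf4-/- replicate 1 and -1.29 without treated Atf4-/- replicate 2. Cyp7a1 is known for a daily rhythm, and the clock gene Dbp (chromosome 7, 45705100 to 45710203), whose product is a known activator of Cyp7a1, also varied within groups. Dbp stood at 0.56 and 5.37 in untreated Atf4+/+, 0.42 and 0.27 in untreated Atf4-/-, 1.42 and 3.87 in treated Atf4+/+ and 0.72 and 1.28 in treated Atf4-/- arrays. The array with the highest Dbp, untreated Atf4+/+ replicate 2, also had the highest ratios of Cyp7a1, Cyp8b1 and Nr0b2, and the array with the next highest, treated Atf4+/+ replicate 2, had the lowest ratio of Slc10a1 and the second lowest of Cyp7a1. The part of the clock in these values was not tested.

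Cyp8b1 (chromosome 9, 121914356 to 121916305) encodes the sterol hydroxylase that steers synthesis toward cholic acid. It stood at 1 and 1.64 in untreated Atf4+/+, 1.16 and 1.09 in untreated Atf4-/-, 0.27 and 0.29 in treated Atf4+/+ and 0.47 and 1 in treated Atf4-/- arrays. The treated Atf4+/+ livers were lowest, treated Atf4-/- livers lay between them and the untreated arrays, and 1 treated array tied with the lowest untreated one. The log2 change was -1.25 ± 0.27 over both genotypes (SE, limma adjusted p = 0.228, unadjusted p = 0.00286), lower or equal in 4 of 4 treated arrays against all untreated ones. It was -1.10 without both untreated arrays opposite to their labels, and -1.48 to -1.01 when any 1 array was left out, but -0.58 with a pseudocount of 1 in place of 0.1, which shrinks log2 changes of low ratios.

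Cyp7b1 (chromosome 3, 18071944 to 18243890) encodes the oxysterol hydroxylase of the alternative pathway. It hardly differed over both genotypes (-0.06 ± 0.19, SE, limma adjusted p = 0.925), and is taken up with the genotype comparisons, where it stood apart. Baat (chromosome 4, 49489416 to 49507915), the enzyme that joins bile acids to amino acids, had the narrowest range of the 9 chosen probe sets, from 0.85 to 1.31 over the 8 arrays. Its log2 change was -0.04 ± 0.19 (SE, limma adjusted p = 0.95).

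Slc10a1 (chromosome 12, 80953185 to 80968705) encodes NTCP, the transporter that takes bile acids up from portal blood. Probe set 100339_at stood at 1.06 and 1.16 in untreated Atf4+/+, 1.19 and 1.37 in untreated Atf4-/-, 0.8 and 0.39 in treated Atf4+/+ and 0.82 and 0.94 in treated Atf4-/- arrays. All 4 treated arrays were below all 4 untreated ones, a pattern that 3.78% of all probe sets showed, and 1 of 12 member probe sets. The log2 change was -0.68 ± 0.23 (SE, limma adjusted p = 0.382). Probe set 100341_g_at gave -0.48 ± 0.24 (SE, limma adjusted p = 0.516), with 1.01 in 1 treated Atf4-/- array against 0.99 in the lowest untreated one. Probe set 100340_at went another way, with 0.22 ± 0.62 (SE, limma adjusted p = 0.916). It had 1.88 and 0.29 in the untreated Atf4+/+ arrays and 1.67 and 0.38 in the untreated Atf4-/- arrays, and its pooled SD within groups was 1.09 on the log2 scale against 0.33 for the first.

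**Figure D2:**
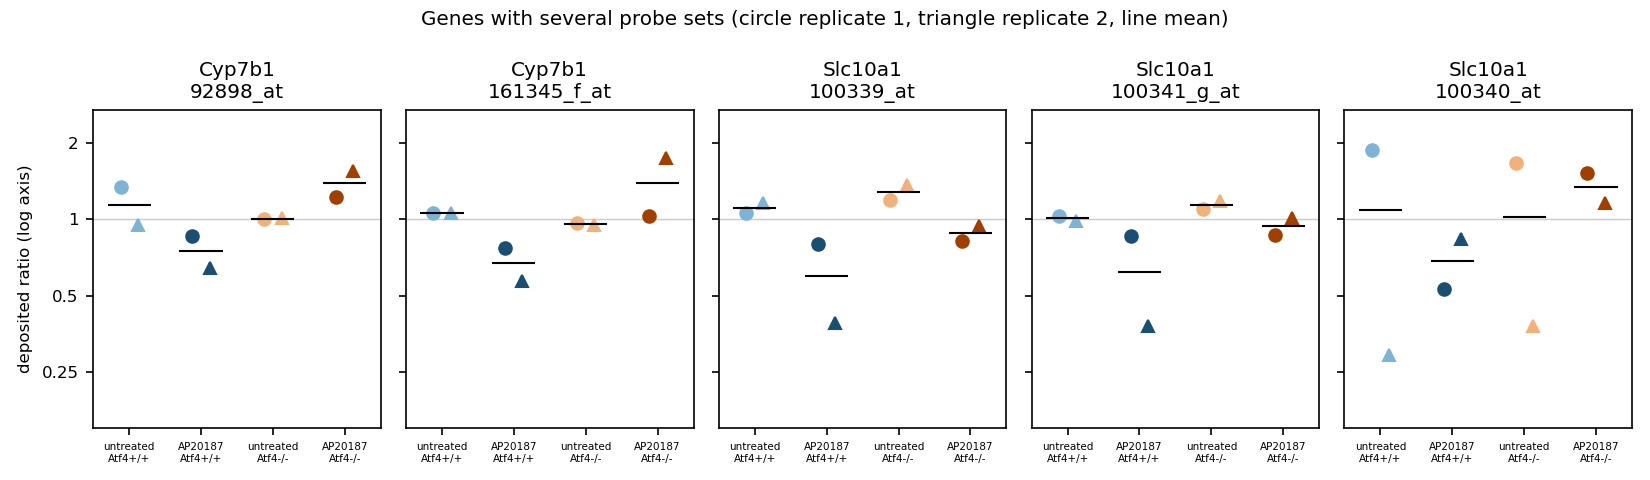
Deposited ratio (log axis) of each probe set of Cyp7b1 and Slc10a1 in the 8 arrays. Circles are replicate 1, triangles replicate 2 and lines group means. Both probe sets of Cyp7b1 had the order of treated groups 0.75 and 0.67 in Atf4+/+ against 1.39 in Atf4-/-, while 100340_at of Slc10a1 spread from 0.29 to 1.88 among untreated arrays.

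Of the exporters into bile, Abcb4 (chromosome 5, 8893614 to 8959226) encodes the floppase that puts phosphatidylcholine into bile. Its ratios were 0.91 and 0.89 in untreated Atf4+/+, 0.71 and 0.79 in untreated Atf4-/-, 1.09 and 2.32 in treated Atf4+/+ and 1.12 and 1.14 in treated Atf4-/- arrays. All 4 treated arrays were above all 4 untreated ones, as in 4.19% of all probe sets and 1 of 12 member probe sets. The log2 change was 0.65 ± 0.24 (SE, limma adjusted p = 0.413), and it was 0.39 without treated Atf4+/+ replicate 2 and 0.90 without treated Atf4+/+ replicate 1. Abcc2 (chromosome 19, 43782308 to 43838332), which encodes the export pump MRP2 for conjugated organic anions, had ratios of 0.61 to 1.31 in untreated and 0.75 to 1.36 in treated arrays. The groups overlapped, with a log2 change of -0.04 ± 0.24 (SE, limma adjusted p = 0.955).

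The next comparison asked what AP20187 changed in Atf4+/+ livers, 2 against 2 arrays. The ratios of Cyp8b1, Nr0b2 and Slc10a1 were the ones that stood farthest below those of untreated livers. Of the 12 member probe sets 0 had a limma adjusted p under 0.05, where 0.00805% of all did, and 3 had an unadjusted p under 0.05, where 9.1% of all did. The median over the 9 genes was -0.53, beside -0.06 over all probe sets, and 5 genes, with 7 probe sets, had both treated arrays below both untreated ones, where 21.3% of all probe sets did. Cyp8b1 had -1.86 ± 0.38 (SE, limma adjusted p = 0.266) and Slc10a1 -0.86 ± 0.32 (limma adjusted p = 0.511). Cyp7b1 had -0.54 ± 0.26 and Abcc2 -0.46 ± 0.35 (limma adjusted p = 0.609 and 0.722). Abcb4 had 0.76 ± 0.35 (limma adjusted p = 0.581), with both treated arrays above both untreated ones. The share of all probe sets with that order was not counted.

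Treated Atf4+/+ replicate 2 carried part of this. Without it the median was -0.32, Slc10a1 had -0.43, Abcb4 0.25, and the count with an unadjusted p under 0.05 was 1 of 12, whereas Cyp8b1 had -2.20 to -1.53 when any 1 array was left out. Without untreated Atf4+/+ replicate 2, or without both untreated arrays opposite to their labels, the median was -0.32, Cyp8b1 had -1.53, Slc10a1 -0.80 and the count was 2.

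The same comparison was made in Atf4-/- livers, 2 against 2 arrays, and of the chosen probe sets those of Cyp7a1, Cyp8b1 and Abcb4 lay farthest from 0. By limma 0 of 12 member probe sets had an adjusted p under 0.05, as had 0% of all, and 0 had an unadjusted p under 0.05, where 7.42% of all did. The median was -0.09 beside -0.02 over all probe sets. Cyp8b1 had -0.63 ± 0.38 (SE, limma adjusted p = 0.733) and Slc10a1 -0.49 ± 0.32 (limma adjusted p = 0.752). These were the 2 genes, with 3 probe sets, whose treated arrays both stood below both untreated ones, where 22.3% of all probe sets did. Cyp7b1, Nr1h4 and Abcb4 had both treated arrays above both untreated ones, an order not counted over all probe sets. Cyp7a1 had -0.95 ± 0.77, Cyp7b1 0.42 ± 0.26, Abcc2 0.37 ± 0.35 and Abcb4 0.53 ± 0.35 (SE, limma adjusted p = 0.794, 0.746, 0.817 and 0.751). Cyp7a1 and Abcc2 changed sign with 1 array: Cyp7a1 had 0.14 without treated replicate 1 and -2.04 without treated replicate 2, and Abcc2 -0.02 without untreated replicate 1 and 0.76 without untreated replicate 2. Cyp7b1 had 0.27 without treated replicate 2. Cyp8b1 had -0.15 without treated replicate 1 and -1.10 without treated replicate 2, and the median was 0.09 and 0.13 without the same arrays. The count with an unadjusted p under 0.05 was 1 without treated Atf4-/- replicate 1 or either treated Atf4+/+ array, and 2 without treated Atf4-/- replicate 2.

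**Figure D3:**
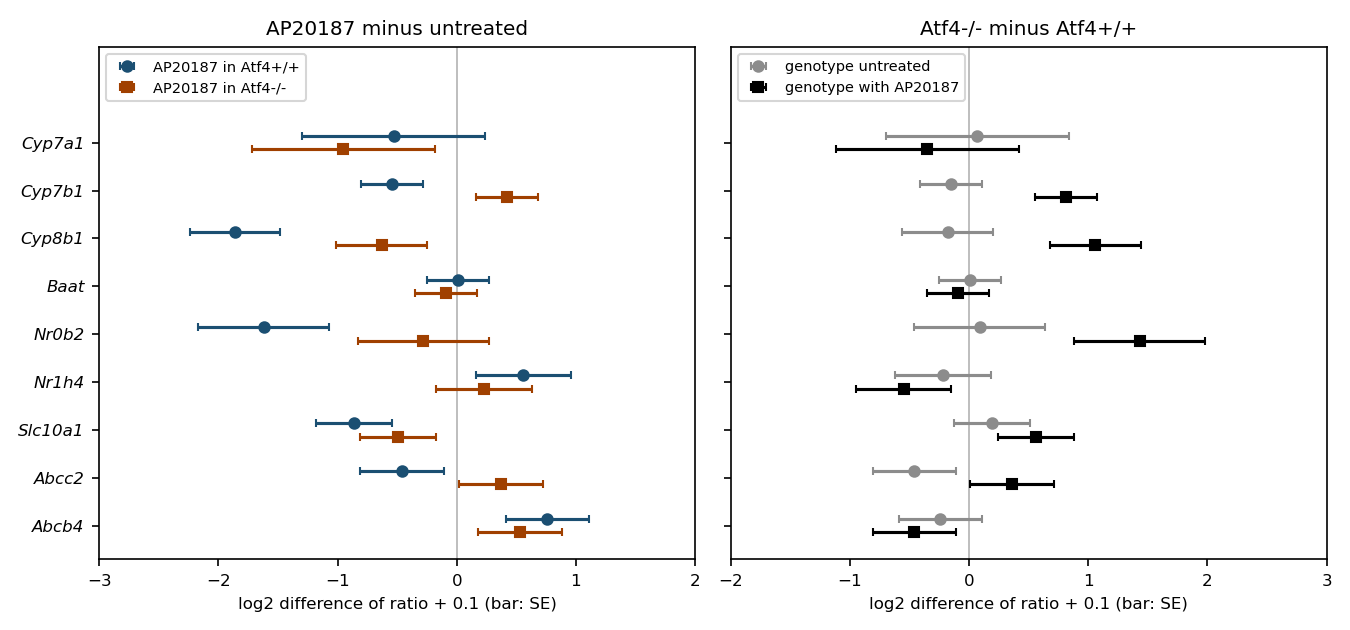
Fitted log2 differences of ratio + 0.1 with their SE for the 9 genes, AP20187 minus untreated in each genotype (left) and Atf4-/- minus Atf4+/+ without and with AP20187 (right). With AP20187, Nr0b2 (1.43), Cyp8b1 (1.06) and Cyp7b1 (0.81) stood higher in Atf4-/- livers, while untreated livers lay between -0.46 and 0.19.

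Whether Atf4 matters for these genes was read from both genotype comparisons and from the difference of the AP20187 effects. In treated livers, whose Atf4 levels went with their labels, Cyp7b1, Cyp8b1, Nr0b2 and Slc10a1 were higher in Atf4-/- than in Atf4+/+ arrays without overlap, and Nr1h4 was lower. All 3 probe sets of Slc10a1 had this order (0.56 ± 0.32 for 100339_at, SE, limma adjusted p = 0.952), but they read the same gene in the same RNA. Between the nearest treated Atf4+/+ and Atf4-/- arrays the gap was narrow for 100339_at (0.8 against 0.82) and 100341_g_at (0.86 against 0.87). It was wider for 100340_at (0.84 against 1.16), whose pooled SD within groups was 1.09. The difference for 100339_at was as low as 0.12 when 1 array was left out. None passed the test: 0 of 12 member probe sets and 0% of all had a limma adjusted p under 0.05. An unadjusted p under 0.05 was found for 4 of 12 member probe sets, all higher in Atf4-/-, and for 5.31% of all. The groups did not overlap for 8 of 12 member probe sets (5 genes in their chosen probe set), beside 34.4% of all. The differences were 1.43 ± 0.55 for Nr0b2, 1.06 ± 0.38 for Cyp8b1 and 0.81 ± 0.26 for Cyp7b1 (SE, limma adjusted p = 0.908, 0.872 and 0.872). Without treated Atf4-/- replicate 1 Nr0b2 had 0.72 and Cyp8b1 1.53, and without treated Atf4-/- replicate 2 they had 2.13 and 0.59. Cyp7b1 had at least 0.63 when any 1 array was left out.

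The hepatocyte markers leaned the same way: 8 of 8 were higher in treated Atf4-/- than in treated Atf4+/+ arrays. Of all 12422 probe sets 6809 were higher in treated Atf4-/- arrays. The median of the markers was 0.26, beside 0.36 for the 9 members and 0.04 for all probe sets. Of the members Nr1h4, Abcb4, Cyp7a1 and Baat were lower in treated Atf4-/- arrays (-0.55, -0.46, -0.35 and -0.09), Cyp7a1 with -1.44 to 0.74 when any 1 array was left out. The part of the hepatocyte share in these values was not tested. The count of 4 was 0 without treated Atf4+/+ replicate 2, 1 without treated Atf4-/- replicate 2 and 2 with a pseudocount of 1, and it was 4 without both untreated arrays opposite to their labels. The median was 0.12 without treated Atf4+/+ replicate 2 and 0.65 without treated Atf4-/- replicate 1.

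In untreated livers the genotypes as labelled lay close together. All 9 genes had differences between -0.46 and 0.19 (median -0.15, beside -0.01 over all probe sets). By limma 0 of 12 probe sets had an adjusted p under 0.05, as had 0% of all, and 0 an unadjusted p under 0.05, where 5.32% of all did; the second count was 1 without untreated Atf4+/+ replicate 2. Without both arrays opposite to their labels the values of Nr0b2 and Nr1h4 were 0.92 and -0.91, in place of 0.09 and -0.22, from 1 array a group.

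Cyp7b1 was the member whose AP20187 effects had opposite signs without overlap. Probe set 92898_at stood at 1.34 and 0.95 in untreated Atf4+/+ and 0.86 and 0.64 in treated Atf4+/+ arrays, and at 1 and 1.01 in untreated Atf4-/- and 1.23 and 1.55 in treated Atf4-/- arrays. Probe set 161345_f_at stood at 1.06 and 1.06, then 0.77 and 0.57, in Atf4+/+, and at 0.97 and 0.95, then 1.03 and 1.75, in Atf4-/-. In both probe sets the treated livers were lower in Atf4+/+ and higher in Atf4-/-, a pattern that 2 of 12 member probe sets and 2.62% of all showed. The probe sets read the same gene in the same RNA and are not independent of each other. The effect in Atf4-/- minus that in Atf4+/+ was 0.97 ± 0.37 and 1.05 ± 0.42 (SE, limma adjusted p = 0.906 and 0.909). These were also the 2 of 12 with an unadjusted p under 0.05 for this difference, beside 5.46% of all, while 0 had an adjusted p under 0.05, as had 0% of all. For 92898_at the difference was 0.74 to 1.20 when any 1 array was left out and 1.20 without both untreated arrays opposite to their labels. The count of 2 was 0 without treated Atf4+/+ replicate 2, without untreated Atf4-/- replicate 1 and without both arrays opposite to their labels. It was 1 without untreated Atf4+/+ replicate 1 or 2, untreated Atf4-/- replicate 2 or treated Atf4-/- replicate 2. Cyp8b1 and Nr0b2 had differences of 1.24 ± 0.53 and 1.34 ± 0.78 (SE, limma adjusted p = 0.923 and 0.944), so that a difference of effects was shown for none of these 3 genes. The difference of Nr0b2 was 0.51 without both arrays opposite to their labels.

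The other genes of the pathway were taken from 3 lists of 47 genes, of which 27 were measured. Of 9 further synthesis enzymes 7 had log2 changes below 0 with AP20187 over both genotypes (median -0.19). So had 5 of 6 further transporters (median -0.28), 5 of 12 regulators (median 0.07) and 55% of all probe sets (median -0.04). By limma 0 of 27 had an adjusted p under 0.05 and 2 an unadjusted p under 0.05, 1 higher and 1 lower, beside 0.0403% and 11.3% of all probe sets. Slc10a2, the bile acid transporter of ileum and bile duct, stood at 0.69 and 0.24 in untreated Atf4+/+, 0.91 and 0.92 in untreated Atf4-/-, 1.08 and 1.09 in treated Atf4+/+ and 1.15 and 1.61 in treated Atf4-/- arrays. All treated arrays were above all untreated ones (0.86 ± 0.29, SE, limma adjusted p = 0.382). Abcc3, an exporter to blood, was below in all treated arrays, with 1.27, 1.37, 1.14 and 1.02 untreated against 0.95, 0.56, 0.98 and 0.77 treated (-0.53 ± 0.20, SE, limma adjusted p = 0.422). Abcc6, a transporter of the same family, had -0.48 ± 0.22 and Acot8, a peroxisomal thioesterase, 0.32 ± 0.17 (SE, limma adjusted p = 0.483 and 0.528).

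The 12 regulators lay between -0.52 and 0.36 over both genotypes. The lowest was Fgf15, the gut hormone that represses bile acid synthesis (-0.52 ± 0.29, SE, limma adjusted p = 0.548), and the highest Onecut1, a liver transcription factor (0.36 ± 0.22, limma adjusted p = 0.575). Nr5a2 had 0.26 ± 0.17, Hnf4a 0.18 ± 0.14, Fgfr4, the receptor of that hormone, 0.12 ± 0.18, and Rxra, the partner of FXR, -0.05 ± 0.17 (SE, limma adjusted p = 0.601, 0.649, 0.825 and 0.928). In Atf4+/+ livers alone Nr5a2 had 0.55 ± 0.24 (SE, limma adjusted p = 0.57, unadjusted p = 0.0616). None of the 12 regulators had an unadjusted p under 0.05 in any of the 6 comparisons, where 5.31% to 11.3% of all probe sets had one by comparison. These 6 regulators were chosen after their values were seen, as was Hsd3b7, the dehydrogenase that acts on the products of the Cyp7a1 and Cyp7b1 enzymes. Hsd3b7 stood at 1.09 and 1.12 in untreated Atf4+/+, 0.7 and 0.56 in treated Atf4+/+, 0.95 and 0.92 in untreated Atf4-/- and 1.27 and 1.06 in treated Atf4-/- arrays. Of these 27 genes it was the 1 with the pattern of Cyp7b1, lower in treated Atf4+/+ and higher in treated Atf4-/- livers without overlap, a share close to the 2.62% of all probe sets (difference of effects 1.01 ± 0.30, SE, limma adjusted p = 0.901).

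**Figure D4:**
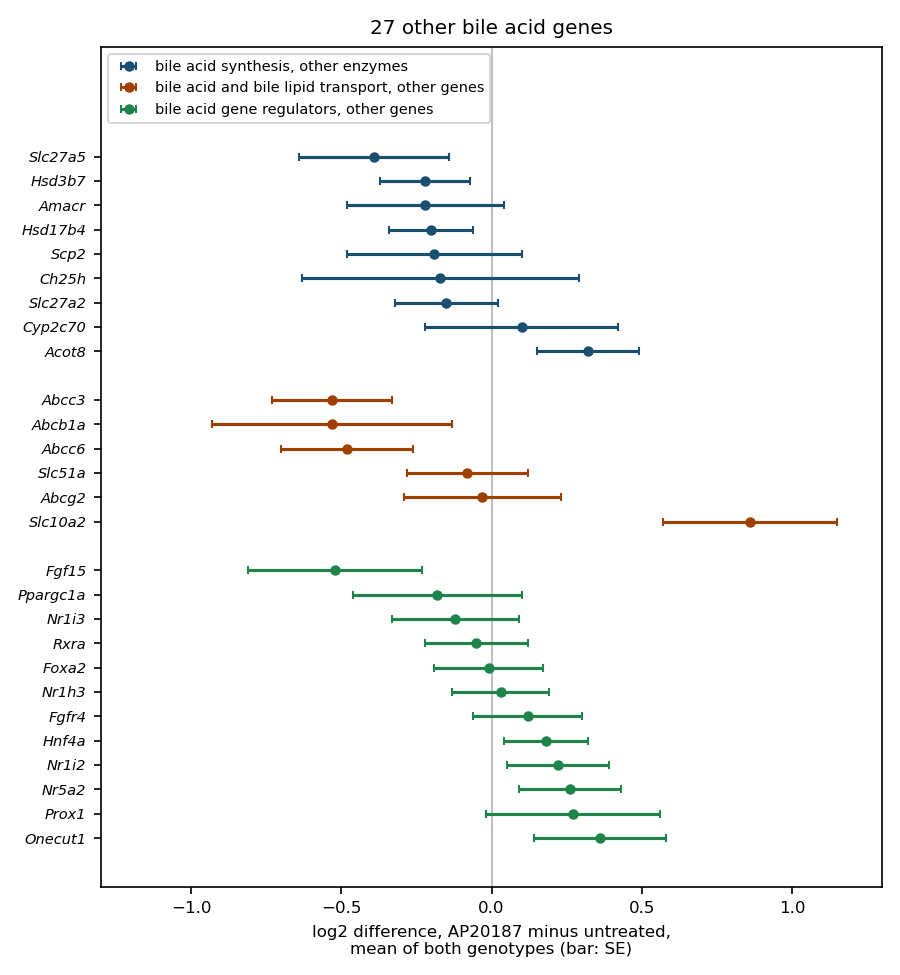
Log2 difference between AP20187-treated and untreated livers, averaged over both genotypes, with its SE for 27 other bile acid genes in 3 lists (8 arrays). Slc10a2 lay farthest above 0 (0.86) and Abcc3 and Abcb1a farthest below it (-0.53 each).

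Other gene lists were read beside these. Genes of the acute phase response, the liver's secretory answer to inflammation, were higher with AP20187 in 11 of 11 (median 0.37 over both genotypes). Of all 12422 probe sets 5586 were higher over both genotypes. The summed ratios of the acute phase genes were 6.95 and 9.45 in untreated Atf4+/+, 12.6 and 6.65 in untreated Atf4-/-, 13.8 and 22.8 in treated Atf4+/+ and 12.9 and 12.5 in treated Atf4-/- arrays. The array with the highest sum was treated Atf4+/+ replicate 2. Of 8 hepatocyte markers 7 were lower with AP20187 (median -0.16), beside 55% of all probe sets (median -0.04). Cholangiocyte markers had a median of -0.29 (5 genes), macrophage markers -0.03 (6), stellate cell markers 0.02 (6), endothelial markers -0.24 (6), lymphocyte markers -0.39 (6), pancreatic acinar markers -0.26 (5) and clock genes 0.00 (14). The part of any of these in the values of the bile acid genes was not tested. Of 7 stress genes taken as a check of the treatment, 7 were higher over both genotypes (median 3.53), and Atf3 rose (4.15 ± 0.33, SE, limma adjusted p = 0.037). The check differed by genotype. In Atf4+/+ livers 7 of 7 were higher (median 4.18), and in Atf4-/- livers 6 of 7 (median 0.31, from -1.10 for Atf4 itself to 3.13 for Atf3). Of all 12422 probe sets 5599 were higher in Atf4+/+ and 5970 in Atf4-/- livers.

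The genes whose pattern over the 8 arrays was most like that of Cyp8b1, Slc10a1 and Abcb4, the members with the smallest p over both genotypes, were found by Pearson's r of log2 values. For Cyp8b1 they were Adam28 (0.98), Fam50b (0.97), Aplf (0.96) and Itgb4 (0.95). For Slc10a1 the like genes were Nipsnap1 (0.98), Slc22a18 (0.98), Ubl5 (0.97) and Sec14l2 (0.97). For Abcb4, last, came Rad17 (0.98), Atp6v1b2 (0.97), Cstf1 (0.97) and Ddx21 (0.97). All points share 8 arrays and one scale per array, and these are the extremes of a search over the whole table, given as a description. Among the members themselves the highest r was 0.81, between Slc10a1 and Cyp8b1, and the lowest was -0.97, between Abcb4 and Slc10a1.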

How the data were processed

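Arrays of mouse liver RNA (8) were analysed from 1 table of linear ratios, deposited by the authors. The sources used here do not state the summary, scaling or divisor behind them. A median ratio of at least 0.99 over the 8 arrays was found for 85.8% of 12488 probe sets, so that brightness is unknown and probe sets of low signal could not be set apart. The number of arrays limits the precision, which also differed between probe sets. Column medians were 0.95 to 0.99 and no further scaling was applied. Tests ran on 12422, leaving out 66 controls: 10833 had 1 gene, 396 several and 1193 none, by an array annotation updated through gene identifiers (10817 matched).

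Groups came from the source names and, for untreated Atf4+/+ replicate 1, the description, since its source name gives no treatment. Replicates were numbered in accession order. Values were log2(ratio + 0.1), a scale that understates changes of low ratios. In limma 3.58.1 (R 4.3.3) 4 group means were fitted to 8 arrays, 6 contrasts were moderated by eBayes (4 residual and 2.37 prior degrees of freedom), with Benjamini-Hochberg adjustment over 12422 probe sets and a threshold of 0.05. An SE pools the spread within all groups. Differences are AP20187 minus untreated, or Atf4-/- minus Atf4+/+. The fit was tested on simulated data. For a gene with several probe sets the main one had a median of at least 0.99, then a plain name, then the smallest SD within groups.

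The members and lists were chosen with earlier results of these data known. Members were named with all their probe sets, other pathway genes as the 4 with the smallest p over both genotypes, and like genes as the 4 with the highest r for each of 3 members, with sex-linked and predicted genes and clone names left out. Of listed genes, those with a probe set naming them alone were used. Alternatives were pseudocounts, scalings, a filter, moderation, array weights, a fit of treatment alone, probe sets averaged per gene, and arrays left out. The package statmod 1.5.0 was loaded with limma. Figures used matplotlib 3.10.9 and Python 3.11.15.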

Additional observations from a re-analysis of the deposited data

Results flagged for a closer look

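In 2 of 12 member probe sets, both of Cyp7b1, the treated arrays were lower in Atf4+/+ and higher in Atf4-/- livers without overlap. Of 27 other bile acid genes 1, Hsd3b7, had this pattern, which 2.62% of all probe sets showed. For Cyp7b1 the effect of AP20187 in Atf4-/- minus that in Atf4+/+ was 0.97 by probe set 92898_at and 1.05 by probe set 161345_f_at on the log2 scale. For Hsd3b7 it was 1.01. The limma test of each difference did not pass (adjusted p = 0.906, 0.909 and 0.901). The untreated arrays behind these values include both whose Atf4 ratio stood opposite to the label.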

How the results depend on the processing

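The count of member probe sets past the limma test was 0 in all 6 comparisons and stayed 0 under each of the 19 alternatives (the fit of treatment alone bears on 1 comparison), while the counts with an unadjusted p under 0.05 moved with single arrays. Of 109 member medians under the alternatives 99 moved by less than 0.18, the SD of array medians within groups. With a pseudocount of 1 the median was -0.26 for AP20187 in Atf4+/+ and 0.14 for the difference of the AP20187 effects, and over both genotypes Cyp8b1 had -0.58, Nr0b2 -0.46, Slc10a1 -0.35 and Abcb4 0.38. Without both untreated arrays opposite to their labels it was -0.32 in Atf4+/+. Leaving out 1 array gave medians of -0.73 to -0.32 for AP20187 in Atf4+/+, -0.16 to 0.13 in Atf4-/-, 0.28 to 0.81 for the difference of effects and 0.12 to 0.65 for the genotypes with AP20187; the cause was not tested. Of 927 values of single genes 864 moved by less than their SE, and 63 by more. Many of these values and medians could not move, so that both shares overstate how steady the results were. Log2 changes stayed the same under other moderation, array weights, the filter and the fit of treatment alone. They also stayed the same without an array outside the comparison. No paired analysis was possible because the labels give no replicate numbers and the numbers used here follow accession order. With 2 arrays a group, a change that misses the threshold is not shown to be absent.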
